A study of Mus musculus with 4 samples.

Results

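Translation initiation and elongation factors are the proteins that bring ribosome, messenger RNA and transfer RNA together and then move the ribosome along. Their genes were taken as those whose platform symbol begins with Eif1 to Eif6 or with Eef1 or Eef2, leaving out the Y-linked Eif2s3y and the kinases Eif2ak1 to Eif2ak4. This gave 53 of the 18193 genes with a probe set of their own. Of these, 42 carry an Eif symbol, initiation factors together with proteins named after them such as Eif4ebp1. The rest carry an Eef symbol, elongation factors or proteins named after them. The rule goes by gene names and uses no measured value. Each gene was read from its brightest probe set, and 50 of the 53 lay above the filter on dim genes, a mean signal of 204.

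The arrays compared livers of delta MET + EGFRi mice at day 7 and day 10 with livers of control mice at day 7 and day 10, with 1 array of pooled RNA for each group and day. All mice carried the genotype Metff/ff:ERCre+/+, a floxed Met gene, which encodes the receptor of hepatocyte growth factor, and a Cre recombinase that tamoxifen activates. The delta MET + EGFRi mice, called treated here, received tamoxifen on 5 days to delete exon 16 of Met, rested for 4 days and then ate the EGFR inhibitor canertinib, at an intended 80 mg/kg/day. Control littermates received only corn oil. The days count from the end of the rest, when the canertinib diet began in treated mice. Gene deletion, tamoxifen, canertinib and diet therefore cannot be told apart in their effects. The number of animals per pool, their age and the promoter of the Cre are not given in the sources used here, and the days are the only replicates of a group.

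In background terms, the cap-binding protein eIF4E, the scaffold eIF4G and the RNA helicase eIF4A open the start of a messenger RNA. The multi-subunit eIF3 and the GTP-binding eIF2 then bring in the small ribosomal subunit with the initiator tRNA. The exchange factor eIF2B recharges eIF2 after each start, and its inhibition by phosphorylated eIF2 is the core of the integrated stress response. During elongation eEF1A delivers each aminoacyl-tRNA, the eEF1B subunits recharge eEF1A, and eEF2 translocates the ribosome. Many of these messenger RNAs begin with a run of pyrimidines, the TOP tract, through which the growth-regulated kinase complex mTORC1 controls their translation. The liver makes most plasma proteins and its hepatocytes carry a high translational load.

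The RefSeq promoter table (assembly GRCm38.p6) held 42 of the 53 genes. A tract was sought as a C followed by at least 4 further pyrimidines. Such a C stood at the annotated start itself in 2 of the 42 genes, Eif3f and Eif2s3x (4.76%, against 3.01% of all 27025 genes in the table). It lay within 5 bases of the start in 9 of the 42 (21.4%, against 21.2% of all genes), a share close to that of all genes. The search rests on the annotated start, and a tract at a start elsewhere would be missed. A gene without a match is therefore not shown to lack a TOP tract. The windows below run from 15 bases before to 15 bases after the annotated start, 5′ to 3′. They are shown because these 6 genes recur in the results, and capitals mark the whole run of C and T around a match within 5 bases of the start. The regions are chr7:108934400-108934429 (plus strand) for Eif3f, chrX:94212637-94212666 (minus) for Eif2s3x and chr9:78481710-78481739 (minus) for Eef1a1. The regions without a match within 5 bases of the annotated start are chr10:81176616-81176645 (plus) for Eef2, chr15:102073758-102073787 (plus) for Eif4b and chr5:134639395-134639424 (minus) for Eif4h.
Eif3f: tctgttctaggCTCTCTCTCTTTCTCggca
Eif2s3x: ctgccgagcaTTTTCCTTTTCTCTCCgagc
Eef1a1: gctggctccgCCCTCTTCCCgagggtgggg
Eef2: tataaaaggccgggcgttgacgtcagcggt
Eif4b: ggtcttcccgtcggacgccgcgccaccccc
Eif4h: gtgcgacttgcgatcaggcagcgcggcgga
The whole run of C and T was 15 bases long in Eif3f, 16 in Eif2s3x and 10 in Eef1a1. It begins upstream of the annotated start in all 3, by 4 bases in Eif3f and by 5 in Eif2s3x and in Eef1a1, and in Eif2s3x its first base is a T.

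The E-box CACGTG, a palindrome that reads the same on both strands, was in the window from 250 bases before to 50 bases after a start in 12 of the 42 genes (28.6%, against 8.09% of all genes). The factor genes also had more G and C in this window, 62.4% on average against 53.6% over all genes, and the part of base composition in the E-box share was not tested. A match is a description of letters and shows no bound factor. Upstream sequence with the E-box in capitals is given for Eef2, whose signal is described below (chr10:81176381-81176630, plus strand), and for the eIF3 subunit gene Eif3f (chr7:108934165-108934414, plus strand).
Eef2: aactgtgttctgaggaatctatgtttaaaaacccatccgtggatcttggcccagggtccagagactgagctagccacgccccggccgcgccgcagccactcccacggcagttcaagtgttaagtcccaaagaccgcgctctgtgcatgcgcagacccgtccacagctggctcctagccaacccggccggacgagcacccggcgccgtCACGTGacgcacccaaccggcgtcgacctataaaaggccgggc
Eif3f: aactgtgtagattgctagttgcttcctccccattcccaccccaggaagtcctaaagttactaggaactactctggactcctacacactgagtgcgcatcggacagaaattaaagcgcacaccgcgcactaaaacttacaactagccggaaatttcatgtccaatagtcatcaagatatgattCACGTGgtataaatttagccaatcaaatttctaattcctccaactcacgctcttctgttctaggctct
The E-box lies 43 bases before the annotated start in Eef2 and 68 bases before it in Eif3f. The ATF4 element TGATGNAA, sought on both strands, was in the window of 2 of the 42 genes, which is 4.76% against 4.51% of all genes. Among the 16 genes with an entry that were higher in treated livers at both days, as described below, 5 held the E-box (31.2%) and 0 the ATF4 element. Genes higher at both days but without an entry, among them Eif1a, Eif6, Eif4ebp1 and Eef1d, could not be searched. Among the 12 with an entry that were higher at day 7 and lower at day 10, 2 held the E-box (16.7%) and 1 the ATF4 element (8.33%). The shares over all genes were the 8.09% and 4.51% given above.

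The 4 arrays had median signals from 210.5 to 223.9. Over all probe sets their log2 signals correlated pairwise at r from 0.923 to 0.948. The ratio of the 3′ to the 5′ actin control, a sign of RNA quality, was 2.28 and 1.98 on the treated arrays of day 7 and day 10, against 1.81 and 2.59 on the control arrays. Met signal was 2433 and 2829 in treated livers, against 975.5 and 1271 in control livers, and the position of its probes relative to exon 16 was not used here. The hepatocyte markers measured, 8 of 10, were all above the filter, and their summed signal was 454011 and 408745 in treated livers, against 397554 and 383549 in control livers. The summed signal of 10 macrophage markers was 38656 and 34754 in treated livers, against 15931 and 9856 in control livers. For 7 neutrophil markers it was 9014 and 12301 in treated, against 2382 and 2595 in control livers, and Camp among them lay at the floor on all arrays. Elane was lower in treated livers at day 7, at 449.4 against 738.7, and Mpo differed by 0.21 and 0.07 on the log2 scale. For 5 markers of B and plasma cells the summed signal was 12293 and 10152 in treated livers, against 4430 and 2869 in control livers. Of these, Jchain and Ighm were higher at both days, while Cd79b and Ms4a1 were lower at both and Cd79a was lower at day 10. Summed T and NK cell markers gave 2584 and 3359 in treated, against 2617 and 2550 in control livers. Endothelial markers gave 6227 and 8654 in treated, against 6808 and 5968 in control livers. Cholangiocyte markers gave 492.9 and 1276 in treated, against 991.5 and 1015 in control livers. Stellate cell markers gave 13370 and 12851 in treated, against 7959 and 7966 in control livers. Of these, Dcn was higher at both days, while Des, Acta2 and Col1a1 were lower at both. The part of these cells in the factor signals was not tested, and in bulk liver fewer cells of a type and less RNA per cell cannot be told apart.

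Treated against control livers over both days, none of the 50 factor genes passed the test. Their log2 differences over both days lay between the lowest, that of Eif5a2, at -1.57, and the highest, that of Eif1a, at 1.09. By limma's test over 11993 genes with Benjamini-Hochberg adjustment, 79 genes (0.659%) were called and the lowest adjusted p of a factor gene was 0.168. At an unadjusted p under 0.05 there were 6 factor genes of 50 (12%), close to the 12.1% of all genes. Eif1a, Eif6, Eif4ebp1, Eef1d and Eef2 were the higher ones among these 6 (10% of 50, against 5.93% of all genes), and Eef1a2 the lower one (2%, against 6.15%). With 2 arrays in each group, a missed call does not show equal levels.

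The differences were counted by direction, without regard to size. At day 7, 38 of the 50 had a higher signal in treated livers (76%), where 45.1% of all genes did. At day 10 the count was 28 (56%), where 50.6% of all genes were higher. Over both days 24 were higher each time (48%, against 26.7% of all genes) and 8 lower each time (16%, against 31.1%). Both treated arrays lay above both control arrays for 18 factor genes (36%, against 20.3% of all genes), and below both for 4 (8%, against 24.1%), which were Eef1a2, Eif3c, Eif4e2 and Eif5a2. A nearly as bright probe set of Eif3c read the other way without overlap, at 3593 and 2975 in treated livers, against 2301 and 1611 in control livers. The factor genes are not independent of each other, and these shares carry no test. Their log2 differences had medians of 0.25 (day 7) and 0.06 (day 10), beside -0.06 and 0.01 over all genes. When a gene's probe sets were averaged instead, 31 of 48 were higher at day 7 (64.6%, against 45.9% of all genes) and 17 at both days (35.4%, against 27.0%). With quantile normalization 33 of the 50 were higher at day 7 (66%, against 47.0% of all genes) and 30 at day 10 (60%, against 48.5%).

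**Figure D1:**
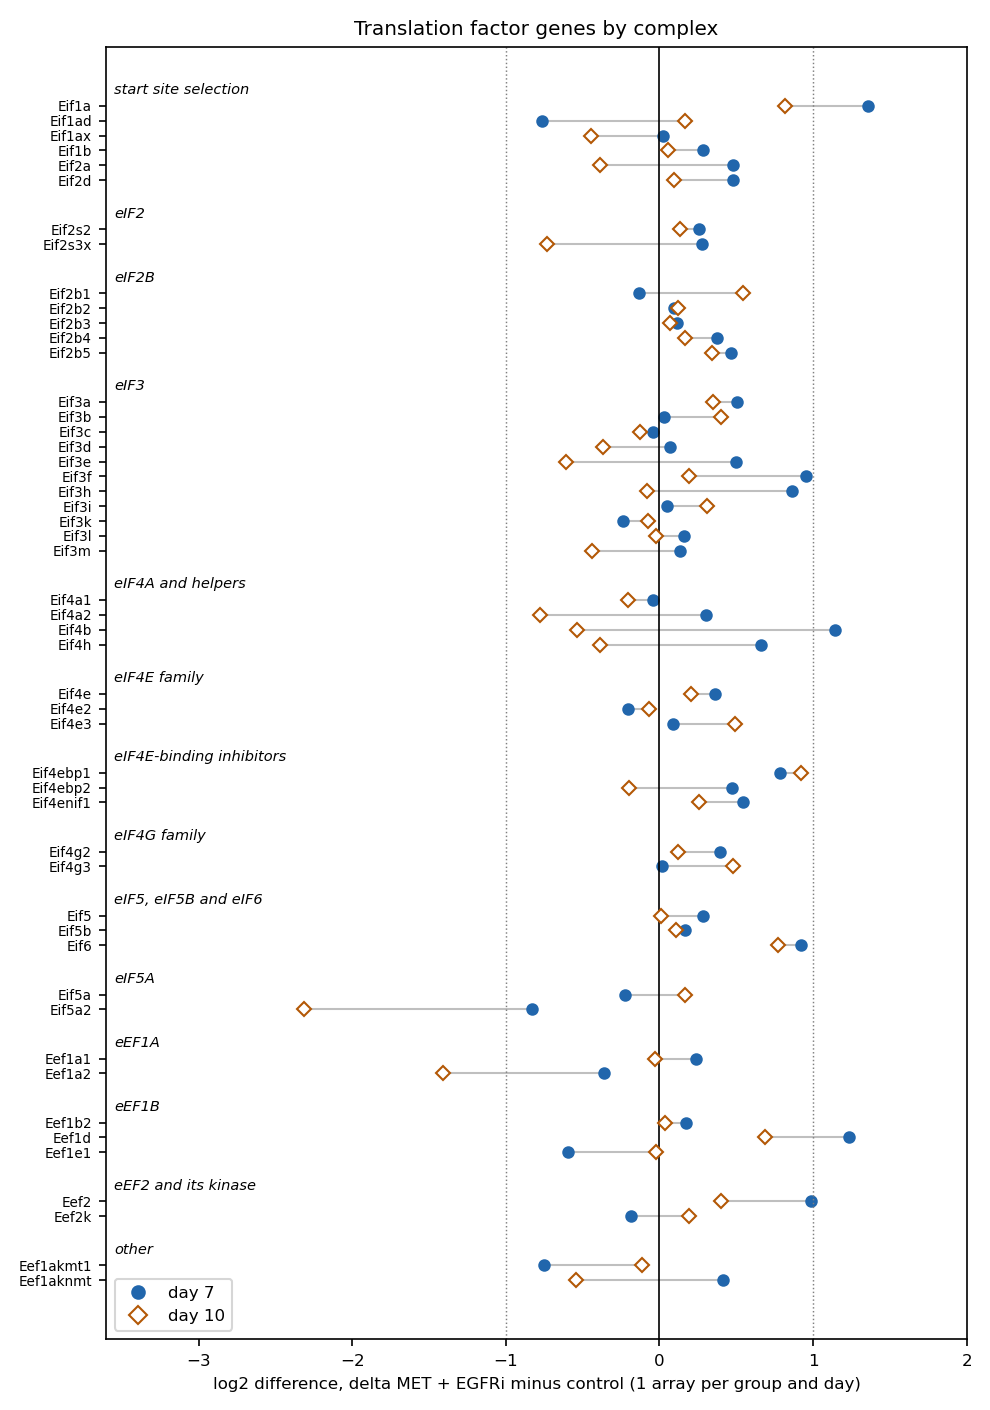
Log2 difference of treated (delta MET + EGFRi) minus control livers for the 50 factor genes above the filter, grouped by complex, with filled circles for day 7 and open diamonds for day 10, each from 1 array per group. Dotted lines mark 2-fold, which Eif1a, Eif4b and Eef1d pass upward at day 7 and Eif5a2 and Eef1a2 pass downward at day 10.

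Single days have 1 array on each side and were read by a size of 2-fold without a test. At day 7, 3 factor genes were at least 2-fold higher (6%, against 4.6% of all genes), namely Eif1a, Eif4b and Eef1d, and 0 at least 2-fold lower (against 5.16%). At day 10, 0 were at least 2-fold higher (against 5.84%) and 2 at least 2-fold lower (4%, against 4.91%), Eef1a2 and Eif5a2. The shares past 2-fold were near or below those of all genes.

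Among the start site factors, eIF1A helps the small subunit scan for the start codon. Its gene Eif1a (Entrez gene 13664) had signals of 2663 and 1822 in treated livers at day 7 and day 10, against 1038 and 1032 in control livers. The groups did not overlap, and the control arrays were nearly equal. Eif1a was higher by 2.57-fold (day 7) and 1.77-fold (day 10). Over both days its log2 difference was 1.09 ± 0.25 (SE), with a limma adjusted p of 0.168. Leaving out the treated array of day 10 gave 1.36 and a limma adjusted p of 0.0245. That fit takes its spread from the control arrays alone and assumes that the lone treated array varies like them. Leaving out the treated array of day 7 gave 0.82 (limma adjusted p = 0.155), and without either control array the limma adjusted p was 0.551 or 0.545. The second probe set of the gene pointed the same way, with log2 differences of 0.93 and 0.54. The X-linked paralogue Eif1ax differed by 0.02 at day 7 and -0.44 at day 10, and its signal was 1680 and 1682 in treated livers, against 1655 and 2289 in control livers. Eif1b is a close relative of the start codon factor eIF1, and Eif2a and Eif2d can carry initiator tRNA without eIF2. These genes were higher at day 7 by 0.28 to 0.48 and differed by -0.38 to 0.10 at day 10. Of Eif2d, other probe sets above the filter read 0.34 and 0.12, and 0.40 and 0.95. A further one read the other way without overlap, at -0.42 and -0.50. Eif1ad differed by -0.76 and 0.17, but its second probe set read 0.35 and 0.13, without overlap.

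The initiator tRNA carrier eIF2 was represented by its β subunit gene Eif2s2 and its γ subunit gene Eif2s3x. Eif2s2 had signals of 5750 and 5738 in treated livers, against 4803 and 5232 in control livers. Its groups did not overlap, though the log2 difference was only 0.20 ± 0.20 (SE; limma adjusted p = 0.737). Eif2s3x had 2548 and 1659 in treated livers, against 2099 and 2750 in control livers, so that it was higher at day 7 and lower at day 10. The 5 subunits of its exchange factor eIF2B were all higher at day 10, by 0.07 to 0.54 on the log2 scale, and 4 of 5 at day 7. The catalytic subunit gene Eif2b5 had 1369 and 1325 in treated livers, against 993.3 and 1043 in control livers, without overlap. Its log2 difference of 0.40 ± 0.20 (SE) did not pass by limma (adjusted p = 0.489), and its other probe set above the filter read -0.46 and -0.37 at day 7 and day 10.

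The scaffold complex eIF3 had 11 genes above the filter, of which 9 were higher at day 7 and 4 at day 10, with median log2 differences of 0.13 and -0.07. Eif3f, Eif3h, Eif3a and Eif3e stood highest among them at day 7. Eif3f had signals of 6176 and 3622 in treated livers, against 3187 and 3173 in control livers, and the groups did not overlap. Eif3h had 7515 and 4448 in treated livers, against 4135 and 4702 in control livers, with overlap at day 10. Eif3e had 6389 and 3015 in treated livers, against 4515 and 4587 in control livers, so that its treated arrays lay on both sides of the control arrays. The log2 differences at day 7 and day 10 were 0.95 and 0.19 for Eif3f, 0.86 and -0.08 for Eif3h, and 0.50 and -0.61 for Eif3e. The core subunit gene Eif3a was 0.51 and 0.35 higher without overlap, and Eif3i, with 8752 and 9443 in treated against 8463 and 7615 in control livers, 0.05 and 0.31. Eif3b, Eif3c and Eif3d differed by 0.03, -0.04 and 0.07 at day 7 and by 0.40, -0.12 and -0.37 at day 10. Eif3l and Eif3m differed by 0.16 and 0.13 at day 7 and by -0.02 and -0.44 at day 10. Eif3k was lower at both days, with 1750 and 1637 in treated against 2065 and 1721 in control livers, and its groups overlapped. None of the 11 passed limma's test, the lowest adjusted p being 0.463 for Eif3a.

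For the 4 genes of the helicase eIF4A and its helpers above the filter, the log2 differences had medians of 0.48 (day 7) and -0.46 (day 10). Eif4b, which stimulates the helicase, had 8244 and 3488 in treated livers, against 3730 and 5052 in control livers. It was 2.21-fold higher at day 7 and 1.45-fold lower at day 10, and its other probe sets above the filter read 0.90 and 1.08 on the log2 scale at day 7 and -0.07 and -0.37 at day 10. Eif4h, a second helper, had 10223 and 5729 in treated livers, against 6478 and 7486 in control livers. The helicase gene Eif4a2 had 8309 and 4869 in treated livers, against 6741 and 8334 in control livers. In each of these 3 genes the treated signal was above its control at day 7 and below it at day 10. The paralogue Eif4a1 had 6766 and 5216 in treated livers, against 6962 and 6020 in control livers, and was lower at both days by 0.04 and 0.21 (log2). Its groups overlapped. The other probe sets of Eif4a1 above the filter, both dimmer, were lower at day 7 (-0.81 and -0.96) but higher at day 10 (0.50 and 0.63). Eif4a3, the helicase of the exon junction complex, lay under the floor of 64.8 on all 4 arrays.

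**Figure D2:**
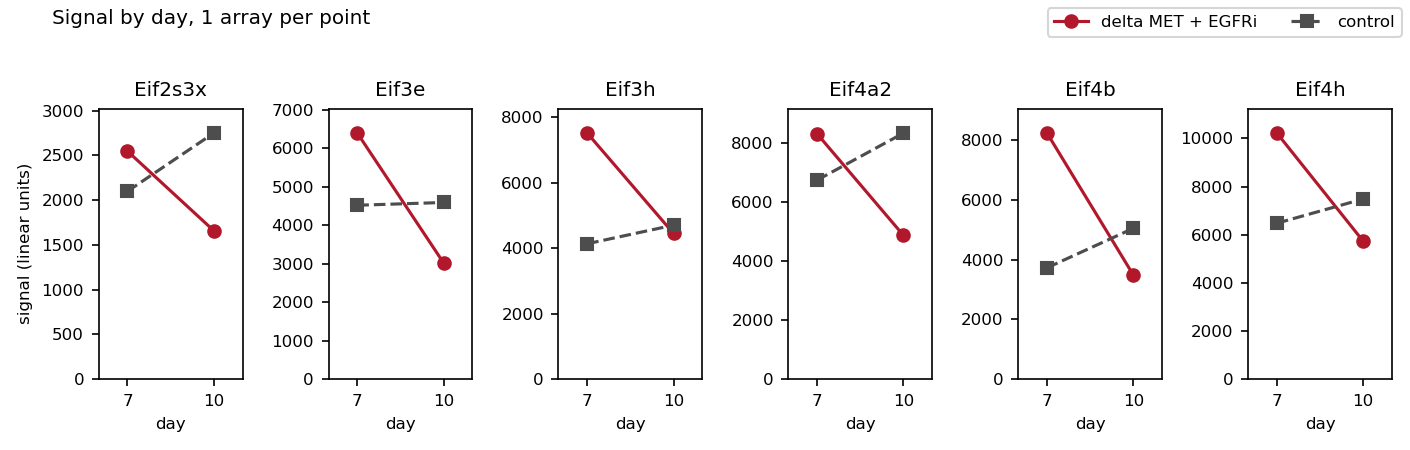
Signal in linear units at day 7 and day 10 for 6 initiation factor genes, with treated (delta MET + EGFRi) livers as a solid line and control livers as a dashed line, 1 array per point. In all 6 the treated value is above control at day 7 and below it at day 10, and for Eif3e it is 6389 and then 3015. The 6 were taken from the 14 factor genes with this order, so that they share it follows from the choice.

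The same 6 genes belong to 14 factor genes that were higher in treated livers at day 7 and lower at day 10 (28%, against 18.3% of all genes). The opposite order, lower at day 7 and higher at day 10, held for 4 factor genes (8%, against 23.8%), namely Eef2k, Eif1ad, Eif2b1 and Eif5a. Within the treated group, 33 of the 50 had a lower signal at day 10 than at day 7 (66%, against 47.4% of all genes). Within the control group 20 did (40%, against 52.4%). In treated livers 3 factor genes were at least 2-fold lower at day 10 than at day 7, namely Eif3e, Eif4b and Eif5a2 (6%, against 3.78%). At least 2-fold higher there were 2, namely Eef1e1 and Eef1akmt1 (4%, against 3.84%). A difference between the days rests on 1 array for each group and day and was not tested.

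Of the cap-binding family, Eif4e itself had 1892 and 1765 in treated livers, against 1469 and 1530 in control livers. The groups did not overlap, and the log2 difference was 0.29 ± 0.20 (SE; limma adjusted p = 0.62), whereas its 3 other probe sets above the filter averaged between -0.21 and -0.14. Eif4e2, a cap-binding relative that represses translation, had 1985 and 2024 in treated livers, against 2290 and 2125 in control livers. Its treated arrays lay just below the control arrays. Eif4e3, a further relative, was 0.09 and 0.49 higher with overlapping groups.

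Among the proteins that hold eIF4E back from eIF4G, Eif4ebp1 encodes the best known target of mTORC1 and is also a target gene of the stress factor ATF4. Its signal (Entrez gene 13685) was 4112 and 3649 in treated livers, against 2389 and 1930 in control livers. The groups did not overlap and the difference was alike at both days. Eif4ebp1 was higher by 1.72-fold (day 7) and 1.89-fold (day 10), with an overall log2 difference of 0.85 ± 0.22 (SE; limma adjusted p = 0.212). Of its other probe sets 1 read 0.94 and 0.41 and the other -0.27 and 1.27. The paralogue Eif4ebp2 had 3363 and 3093 in treated livers, against 2424 and 3543 in control livers, with overlap. A probe set of Eif4ebp2 that was nearly as bright had 3521 and 3575 in treated livers, against 2230 and 2494 in control livers, without overlap. Over both days all 3 other probe sets of Eif4ebp2 above the filter were higher, by 0.41 to 0.98 on the log2 scale. Eif4enif1, which carries eIF4E into the nucleus, was 0.54 and 0.26 higher without overlap.

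The scaffold relative Eif4g2, which lacks the eIF4E-binding part, had 14776 and 15746 in treated livers, against 11245 and 14459 in control livers. Eif4g3 differed by 0.01 and 0.48, and neither gene's groups overlapped. A dimmer probe set of Eif4g3 above the filter read the other way without overlap, at -0.34 on both days, and another read -0.53 and 0.09. At the step where the ribosomal subunits join, eIF6 keeps the large subunit free until it is released. Eif6 (Entrez gene 16418) had signals of 3137 and 3178 in treated livers, against 1654 and 1864 in control livers. Its groups did not overlap and the treated arrays were nearly equal. Eif6 was higher by 1.90-fold (day 7) and 1.70-fold (day 10), with an overall log2 difference of 0.85 ± 0.20 (SE; limma adjusted p = 0.178). Its second, dimmer probe set read the other way, at -0.64 and -0.0049. Eif5, which triggers GTP hydrolysis on eIF2, had 7650 and 6637 in treated livers, against 6294 and 6596 in control livers. Eif5b, the joining GTPase, was 0.17 and 0.11 higher with overlapping groups. Its other probe set above the filter read the other way without overlap, at -0.51 and -0.88.

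The hypusine-bearing factor eIF5A helps the ribosome through difficult peptide bonds. Its main gene Eif5a had 17631 and 18572 in treated livers, against 20636 and 16559 in control livers, with overlap. The second gene Eif5a2 had 363 and 80.9 in treated livers, against 645.5 and 403 in control livers, and its treated arrays were both lower. Eif5a2 was 1.78-fold lower at day 7 and 4.98-fold lower at day 10, close to the floor there, with a log2 difference of -1.57 ± 0.71 (SE; limma adjusted p = 0.447). Leaving out the treated array of day 7 gave -2.66 (limma adjusted p = 0.0195), again with the spread of the control arrays alone, but without the treated array of day 10 it was -0.49 (adjusted p = 0.646). Without either control array the limma adjusted p of Eif5a2 was 0.856 or 0.709. When its probe sets were averaged, the gene lay under the filter.

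**Figure D3:**
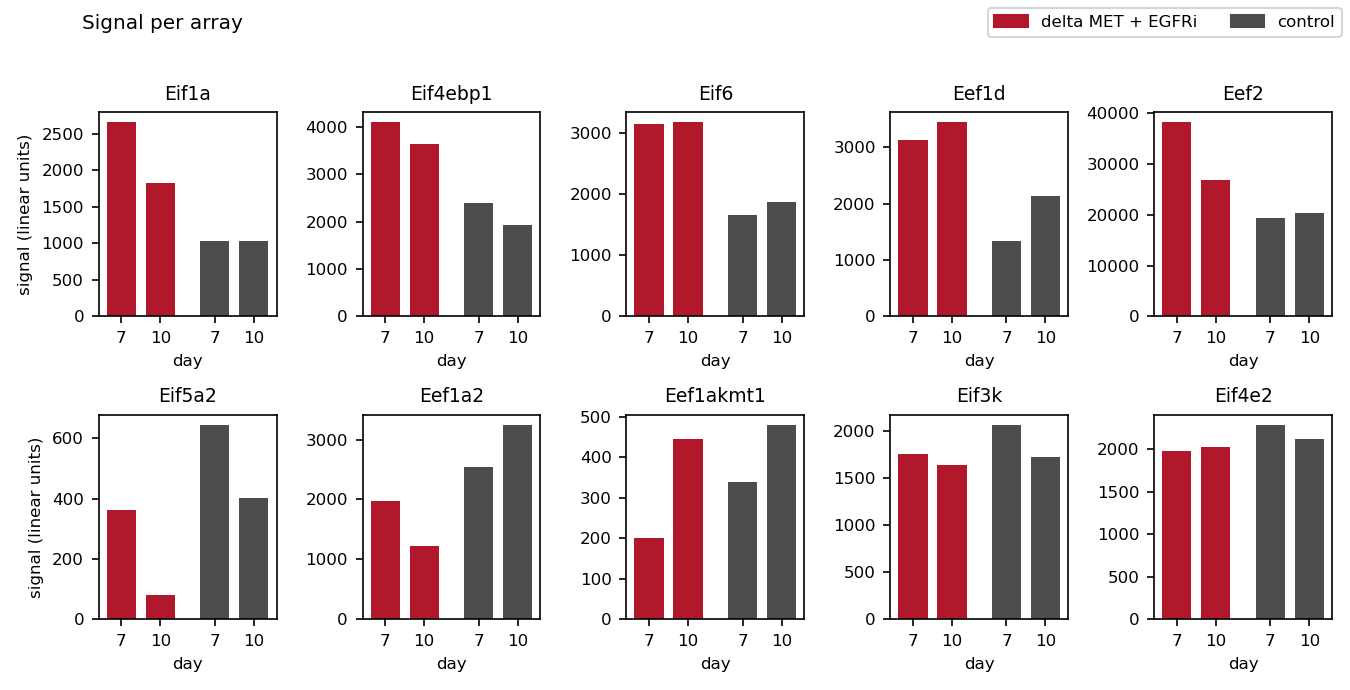
Signal in linear units on each array for the 5 factor genes highest (top row) and the 5 lowest (bottom row) by the smaller of their daily log2 differences, with treated (delta MET + EGFRi) bars left of control bars and 1 array per bar. All 5 in the top row have both treated bars above both control bars, while Eef1akmt1 and Eif3k in the bottom row overlap.

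In elongation, the tRNA-delivering factor eEF1A has the widespread gene Eef1a1 and the gene Eef1a2, which in mice replaces it in muscle and neurons. Eef1a1 had 66054 and 55694 in treated livers, against 55968 and 56904 in control livers, with overlap. Many processed copies of Eef1a1 exist in the genome, and its signal may include them. Eef1a2 (Entrez gene 13628) had 1975 and 1223 in treated livers, against 2536 and 3252 in control livers. Both treated arrays were lower, and the day 10 pair lay farthest apart. Eef1a2 was lower by 1.28-fold (day 7) and 2.66-fold (day 10), with an overall log2 difference of -0.89 ± 0.29 (SE; limma adjusted p = 0.316). Leaving out the treated array of day 7 gave -1.23 (limma adjusted p = 0.0368), and leaving out that of day 10 gave -0.54 (adjusted p = 0.406), with the spread of the control arrays alone in both fits. Without either control array the limma adjusted p of Eef1a2 was 0.605 or 0.723. The summed signal of 4 striated muscle markers, of which 1 lay above the filter, was 880.8 and 849.8 in treated livers, against 502.2 and 492.1 in control livers. Ckm and Acta1 were the higher ones at both days, while Mb had 51 and 57 in treated livers, against 83.4 and 101.7 in control livers. The part of muscle RNA in Eef1a2 was not tested.

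The exchange complex eEF1B contributed Eef1b2 and Eef1d. Eef1e1 was grouped with them by its name only, and its product is a part of the multi-tRNA-synthetase complex. Eef1d (Entrez gene 66656) had 3132 and 3456 in treated livers, against 1330 and 2142 in control livers. The groups did not overlap, and the control arrays lay farther from each other than the treated ones. Eef1d was higher by 2.35-fold (day 7) and 1.61-fold (day 10), with an overall log2 difference of 0.96 ± 0.28 (SE; limma adjusted p = 0.259). Of its other probe sets above the filter, 1 read 0.72 and -0.38 and the other -0.20 and -0.28. Eef1b2 had 3636 and 3250 in treated livers, against 3228 and 3175 in control livers, a narrow gap without overlap. Eef1e1 differed by -0.59 at day 7 and -0.02 at day 10.

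The translocase gene Eef2 (Entrez gene 13629), with the E-box shown above, had 38289 and 26811 in treated livers, against 19353 and 20324 in control livers. Both treated arrays were above both control arrays, most at day 7. Eef2 was higher by 1.98-fold (day 7) and 1.32-fold (day 10), with an overall log2 difference of 0.69 ± 0.25 (SE; limma adjusted p = 0.353). Leaving out the treated array of day 10 gave 0.95 (limma adjusted p = 0.0199), and leaving out that of day 7 gave 0.43 (adjusted p = 0.246), with the spread of the control arrays alone in both fits. Without either control array the limma adjusted p of Eef2 was 0.818 or 0.732. Eef2k, whose kinase product inhibits eEF2, differed by -0.18 and 0.19. Of the 4 methyltransferases named after the elongation factors, Eef1akmt2 and Eef2kmt lay under the filter. Eef1akmt1 had 200.9 and 444.9 in treated livers, against 338.1 and 481.4 in control livers, and Eef1aknmt 434.4 and 329.3 in treated, against 325.7 and 479.1 in control livers. Both overlapped between the groups.

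In each of 6 further lists of the translation pathway, 0 genes passed limma's test in either direction. At an unadjusted p under 0.05 there were 14 of 41 ribosomal protein genes, 2 of 12 stress response genes and 1 of 11 genes of the mTORC1 list that were higher, against 5.93% of all genes. Lower were 3 of 7 mitochondrial translation factors and 1 stress response gene, Asns, against 6.15% of all genes. Of 41 cytosolic ribosomal protein genes above the filter, 36 were higher in treated livers at day 7 and 39 at day 10, with median log2 differences of 0.47 and 0.35, against 0.25 and 0.06 for the factor genes. Of 7 mitochondrial translation factors 6 were lower at day 7 and 6 at day 10, with medians of -0.39 and -0.41. Among 12 integrated stress response genes, which include the eIF2 kinases, 8 were higher at day 7 and 9 at day 10 (medians 0.20 and 0.36). The gene of the eIF2 kinase PERK, Eif2ak3, had 1054 and 1123 in treated livers, against 608.7 and 529.2 in control livers. Asns of the same list had 2684 and 2418 in treated livers, against 3339 and 4123 in control livers. Both were named here after their values were seen, and neither passed by limma (adjusted p = 0.166 and 0.396). Among 11 genes of mTORC1 and its kinases 5 were higher at day 7 and 3 at day 10 (medians -0.06 and -0.28). The mTORC1 repressor gene Ddit4 had 1564 and 675.3 in treated livers, against 220.8 and 290.8 in control livers. Its groups did not overlap, and with 2.02 ± 0.42 (SE) on the log2 scale it missed the limma threshold (adjusted p = 0.142). For 9 genes of termination, recycling and poly(A) binding the medians were 0.14 and -0.18. For 7 genes of factor modification, among them the member Eef1akmt1, they were 0.26 and -0.11. No difference between lists was tested.

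**Figure D4:**
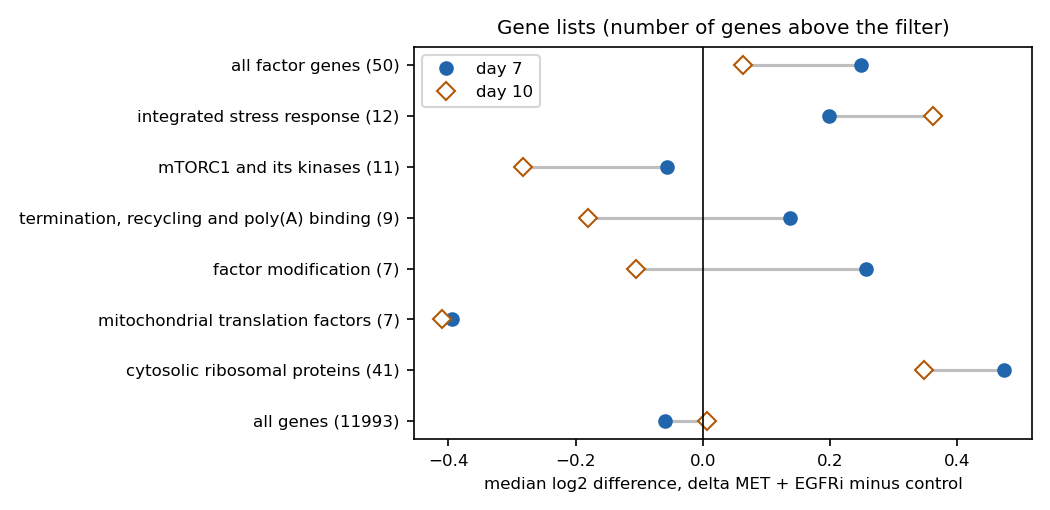
Median log2 difference of treated (delta MET + EGFRi) minus control livers for the factor genes, 6 further translation lists and all genes above the filter, with circles for day 7, diamonds for day 10 and the number of genes in brackets. The factor genes stand at 0.25 and 0.06, the cytosolic ribosomal proteins at 0.47 and 0.35 and the mitochondrial translation factors at -0.39 and -0.41.

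The other probe sets of the factor genes were read beside the brightest ones. Above the filter there were 62, belonging to 29 genes. Of these, 61.3% had the sign of the brightest probe set at day 7 and 54.8% at day 10, against 60.8% and 60.2% over all genes. The pattern of Eif3e, higher at day 7 and lower at day 10, was found in all 3 of its probe sets above the filter, and that of Eif4b in all 3. Of the 3 probe sets of Eif2s3x it was found in 2. The other probe set of Eif2a above the filter also showed it, and those of Eif4h did except a dim one at -0.03 and -0.53. That of Eif3l read -0.59 and -0.65, and none of the other probe sets of Eif4ebp2 above the filter showed the pattern. The 8 probe sets that the annotation shares between a factor gene and other genes were not used.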

How the data were processed

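Pooled liver RNA was measured on 4 Affymetrix arrays, and the deposited intensity values are MAS5 signals, per the submitters' processing notes. Of 45101 probe sets, 64 were array controls. The platform annotation gave 34945 a single symbol, 932 several and 9160 none, and all 53 factor genes matched the RefSeq gene table by Entrez ID. Lower signals were raised to a floor of 64.8, the 25th percentile, before log2. Each gene was represented by its brightest probe set, and 11993 genes with a mean above the median of all probe sets were kept.

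The group difference was tested with 2 arrays per group in limma 3.58.1 (R 4.3.3) with an intensity trend. Its p-values are two-sided and were adjusted by Benjamini-Hochberg over all kept genes, with a threshold of 0.05. The labels do not say that the pools of the 2 days are separate animals, and p-values measure the spread between these arrays only, which includes the day. The step was tested on simulated data. How often it found differences of the size seen in the factor genes is not reported here. Single days have 1 array per side and no test. No counts underlie these values, and the number of arrays limits the precision. The labels number no replicates, so the numbers used follow accession order, and the arrays of the same day were paired only through the day, which was tried as a block. Members, lists and tests were chosen with earlier results of these data known. Array values are given for the members by a rule: the 5 highest and 5 lowest by the smaller daily difference, the 5 with the largest difference between days, the brightest of each complex and 3 paralogue pairs, with others chosen after their values were seen. Alternatives were other floors, scalings, filters and size rules, averaged or other probe sets, limma without the trend and leaving out each array. Comparing each treated array with both control arrays was added after seeing the data. Promoter windows were searched in Python 3.11.15, which also drew the figures (matplotlib 3.10.9).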

Additional observations from a re-analysis of the deposited data

Results flagged for a closer look

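For 18 of the 50 factor genes, the treated array lay on opposite sides of its control at day 7 and day 10. The difference between the days was not tested, with 1 array for each group and day. The values given are the effect at day 10 minus that at day 7, in log2 units.

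Of the 14 genes higher at day 7 and lower at day 10, the value was -1.68 for Eif4b, -1.11 for Eif3e, -1.08 for Eif4a2, -1.04 for Eif4h and -1.01 for Eif2s3x. It was -0.96 for Eef1aknmt, -0.94 for Eif3h, -0.86 for Eif2a, -0.67 for Eif4ebp2 and -0.57 for Eif3m. It was -0.47 for Eif1ax, -0.44 for Eif3d, -0.27 for Eef1a1 and -0.18 for Eif3l. A nearly as bright probe set of Eif4ebp2 was higher at both days. Of the 4 genes in the opposite order, the value was 0.93 for Eif1ad, 0.68 for Eif2b1, 0.39 for Eif5a and 0.38 for Eef2k. The second probe set of Eif1ad was higher at both days.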

How the results depend on the processing

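Of the 50 factor genes 0 passed under each other floor, scaling, filter and probe set rule, without the trend, with the threshold at 0.1 and with day as a replicate block. Leaving out single arrays gave 0 to 2. The count over all genes was 47 with day as a replicate block, 42 without the trend, 42 with averaged probe sets, 0 without a filter (1918 at an unadjusted p under 0.05), 162 at an adjusted p under 0.1 and 24 to 466 with single arrays left out. The replicate block changed no call of a factor gene.

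The 2-fold count at day 7 was 6 with arrays scaled to equal medians, 13 at 1.5-fold and 0 at 3-fold. At day 10 it was 9 at 1.5-fold and 1 at 3-fold, after a stricter filter (75th percentile) and with averaged probe sets. The stricter filter left 5 genes lower at both days. The factor genes higher at day 7 numbered 31 to 40 and those at day 10 25 to 32 over the alternatives, against 38 and 28. With quantile normalization they numbered 33 and 30, and with arrays scaled to equal medians 40 and 26. The contrast between the days thus depended on the scaling. Averaged probe sets moved the median log2 difference to 0.11 for eIF2B, -0.068 for the eIF4E family, -0.0086 for eIF5, eIF5B and eIF6 and 0.20 for eEF2 and its kinase. The cause was not tested. It gave -0.021 for eIF5A and -0.52 for the methyltransferases, where Eif5a2 and Eef1aknmt fell under the filter and Eif5a and Eef1akmt1 alone were left.

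Over 26 named genes and 325 alternatives the sign turned in 31, in 17 genes. Quantile normalization gave -0.12 for Eef1a1. Averaged probe sets gave 0.0077 for Eif3e, -0.016 for Eif4h and -0.0086 for Eif5. Other probe sets gave -0.24 for Eef1d, -0.32 for Eif6, 0.39 for Eif3e, 0.12 for Eif4e2 and -0.15 for Eif4g2, and -0.19, -0.078 and -0.27 for Eif2s2. They gave -0.28, -0.067 and -0.18 for Eif4h and -0.0064, -0.085 and -0.14 for Eif5. In limma with single arrays left out the differences ran from -0.019 to 0.23 for Eef1a1, -1.01 to 0.14 for Eef1akmt1, -0.34 to 0.22 for Eef1aknmt, -0.45 to 0.023 for Eif1ax and -0.59 to 0.49 for Eif3e. They ran from -0.31 to 0.064 for Eif4a1, -0.62 to 0.15 for Eif4a2, -0.32 to 0.93 for Eif4b, -0.14 to 0.41 for Eif4ebp2, -0.28 to 0.55 for Eif4h and -0.19 to 0.13 for Eif5a.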
